A study of Homo sapiens with 12 samples.

Results

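A group of 9 genes known from eosinophils, basophils and mast cells was followed in 2 human acute myeloid leukemia (AML) cell lines treated with duocarmycin SA (DSA), a natural product that alkylates adenines in the minor groove of DNA. The 9 genes, of 60754 in the files, were taken by name, with earlier results of these data known. They were MS4A2, HDC and CPA3 of mast cells and basophils, the transcription factors GATA1 and GATA2, and PRG2, EPX, RNASE2 and CLC of eosinophils. RNA was sequenced after 36 h in Molm-14 cells, a line with features of monocytes, grown in RPMI with 10% serum and given no DSA, 11.1 pM or 100 pM. It was also sequenced in HL-60 cells, a line resembling promyelocytes, grown in IMDM with 20% serum and given no DSA, 112.7 pM or 500 pM. Each of the 6 groups had 2 libraries, and nothing states that they were grown apart, so the p-values speak of the spread between these libraries alone, which may be technical. The labels call the controls untreated, whereas the methods name a vehicle.

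Eosinophils store cationic proteins in their granules, among them the major basic protein, a peroxidase and ribonucleases, and carry galectin-10, which can form Charcot-Leyden crystals. Mast cells and basophils make histamine and release it when IgE bound to its high affinity receptor is crosslinked by an allergen, and mast cells also pack carboxypeptidase A3 into their granules. GATA1 and GATA2 are zinc finger factors that bind GATA letters in DNA and take part in the formation of these cells, and sublines of HL-60 can be driven towards eosinophils in culture.

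Levels are given as CPM, counts relative to the TMM-scaled total of the tested genes, and as TPM, the deposited unit per length, where genes are compared with each other. Libraries held from 21177424 to 63927449 expected counts, and the HL-60 controls were deeper than the treated HL-60 libraries. Differences were tested with edgeR's quasi-likelihood test in 1 fit over all 12 libraries, and 8 of the 9 genes passed its filter on low counts, GATA1 being the exception. A gene was called when its p, adjusted over all 13422 genes tested, was under 0.05.

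The genes lie apart on the genome (hg38, whole gene spans in GENCODE release 44), except for a pair on each of chromosomes 3 and 11. On chromosome 11 lie MS4A2 (ENSG00000149534) at chr11:60088261-60098467 on the plus strand and PRG2 (ENSG00000186652) at chr11:57386780-57390650 on the minus strand. On chromosome 3 lie GATA2 (ENSG00000179348) at chr3:128479427-128493201 on the minus strand and CPA3 (ENSG00000163751) at chr3:148865296-148897203 on the plus strand. The others are GATA1 (ENSG00000102145) at chrX:48786540-48794311 on the plus strand, HDC (ENSG00000140287) at chr15:50241947-50265965 on the minus strand, EPX (ENSG00000121053) at chr17:58192726-58205174 on the plus strand, RNASE2 (ENSG00000169385) at chr14:20955487-20956436 on the plus strand and CLC (ENSG00000105205) at chr19:39731255-39738029 on the minus strand.

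The members stood at different levels in the controls of the 2 lines. HDC, CPA3 and CLC had 0 counts in the Molm-14 controls, and GATA1 was near 0 in both lines. PRG2, the precursor of the major basic protein, was the most abundant in untreated HL-60 cells at 1387.9 ± 13.6 TPM (SD, n = 2), which placed it 114th of 19868 protein-coding genes. RNASE2, the eosinophil-derived neurotoxin, was the most abundant in untreated Molm-14 cells at 722.4 ± 25.4 TPM, in place 157. Below PRG2 in HL-60 cells stood RNASE2 at 54.5 ± 5.18, GATA2 at 41.5 ± 1.12 and CLC at 34.7 ± 0.53 TPM, followed by MS4A2 at 2.32 ± 0.339, EPX at 1.22 ± 0.0849, CPA3 at 0.64 ± 0.099 and HDC at 0.19 ± 0.0141 TPM. Both libraries of each of these genes lay above both libraries of the next in the order. In Molm-14 cells the order after RNASE2 was GATA2 at 5.61 ± 1.03 and PRG2 at 4.86 ± 0.983 TPM, whose libraries overlapped, then EPX at 0.775 ± 0.00707 and MS4A2 at 0.05 ± 0.0283 TPM. GATA1, a factor of eosinophils, mast cells, red cells and platelets, had 0 or 1 count in every library of both lines. Of the 11 erythroid markers, all were at 0 in the Molm-14 libraries and 9 in the HL-60 controls, and IL5RA, the receptor chain for the eosinophil growth factor IL-5, had no more than 5 counts in any library. The names of the genes are therefore used for the genes alone and not for the cells.

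**Figure D1:**
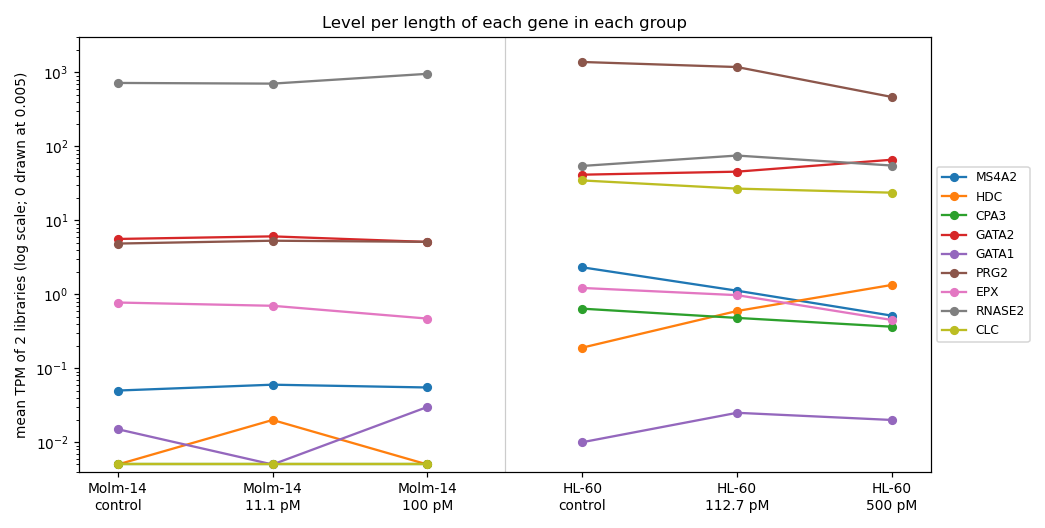
Mean TPM (vertical axis, log scale) of each of the 9 genes in the 6 groups, with 1 line per gene within each cell line and values of 0 drawn at the bottom of the axis. RNASE2 leads in Molm-14 cells, between 707.1 and 959.5 TPM, and PRG2 leads in HL-60 cells, where it goes from 1387.9 TPM in the controls to 466.7 TPM at 500 pM.

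Comparing the untreated lines, 7 of the 8 genes tested were higher and 1 was lower in HL-60 than in Molm-14 cells, where 43.9% of all genes tested were higher and 40.1% lower (84.0% in either direction). With a fold over 2 also required, 6 were higher and 1 lower, against 16.5% and 20.6% of all genes. HDC, CPA3, CLC and MS4A2, with few or no counts in Molm-14 cells, passed the filter on low counts through HL-60 libraries alone. Their direction was thus largely set by that filter, and the counts of higher members partly follow from it. PRG2 stood at 1450.2 and 1489.5 CPM in the HL-60 controls and at 6.2 and 4.72 CPM in those of Molm-14, a log2 difference of 8.08 (SE 0.0733, adjusted p = 4.28e-24). PRG2 shares exons with a readthrough gene that runs from SLC43A3 into it, for which 2173 and 3149 counts were found in untreated HL-60 and 158 and 166 in untreated Molm-14 libraries. With both genes summed the difference was 7.19, so its size depends on how reads were divided between them. CLC, which encodes galectin-10, was counted 511 and 826 times in untreated HL-60 libraries and never in the 6 Molm-14 libraries, so that it was at least 150.2-fold higher in HL-60 cells when each library at 0 is set to a floor of 3 counts. CPA3, the carboxypeptidase of mast cell granules, had 37 and 40 counts against 0 and was at least 9.05-fold higher by the same floor. HDC, the enzyme that makes histamine, had 11 and 17 counts against 0 and was at least 3.16-fold higher. Floors of this kind cover counting error only.

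MS4A2, the β chain of the high affinity IgE receptor, was counted 216 and 310 times in untreated HL-60 libraries and 4 and 3 times in those of Molm-14 (log2 difference 5.63, SE 0.315, adjusted p = 2.58e-12). GATA2 was 6.62-fold higher in HL-60 controls, at 87.8 and 83.6 against 12 and 13.8 CPM (adjusted p = 2.03e-18). RNASE2 was the member with the opposite order, at 24.3 and 27.9 CPM in HL-60 and 377.5 and 352.6 CPM in Molm-14 controls (log2 difference -3.80, SE 0.0578, adjusted p = 5.71e-21). EPX, the eosinophil peroxidase, differed least, at 2.6 and 2.92 against 1.87 and 1.82 CPM (0.59, SE 0.202, adjusted p = 0.0118). This call for EPX was lost with DESeq2 (adjusted p = 0.105), with libraries thinned to the smallest total (0.266), without Molm-14 control replicate 2 (0.0563) and without HL-60 control replicate 2 (0.0909).

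**Figure D2:**
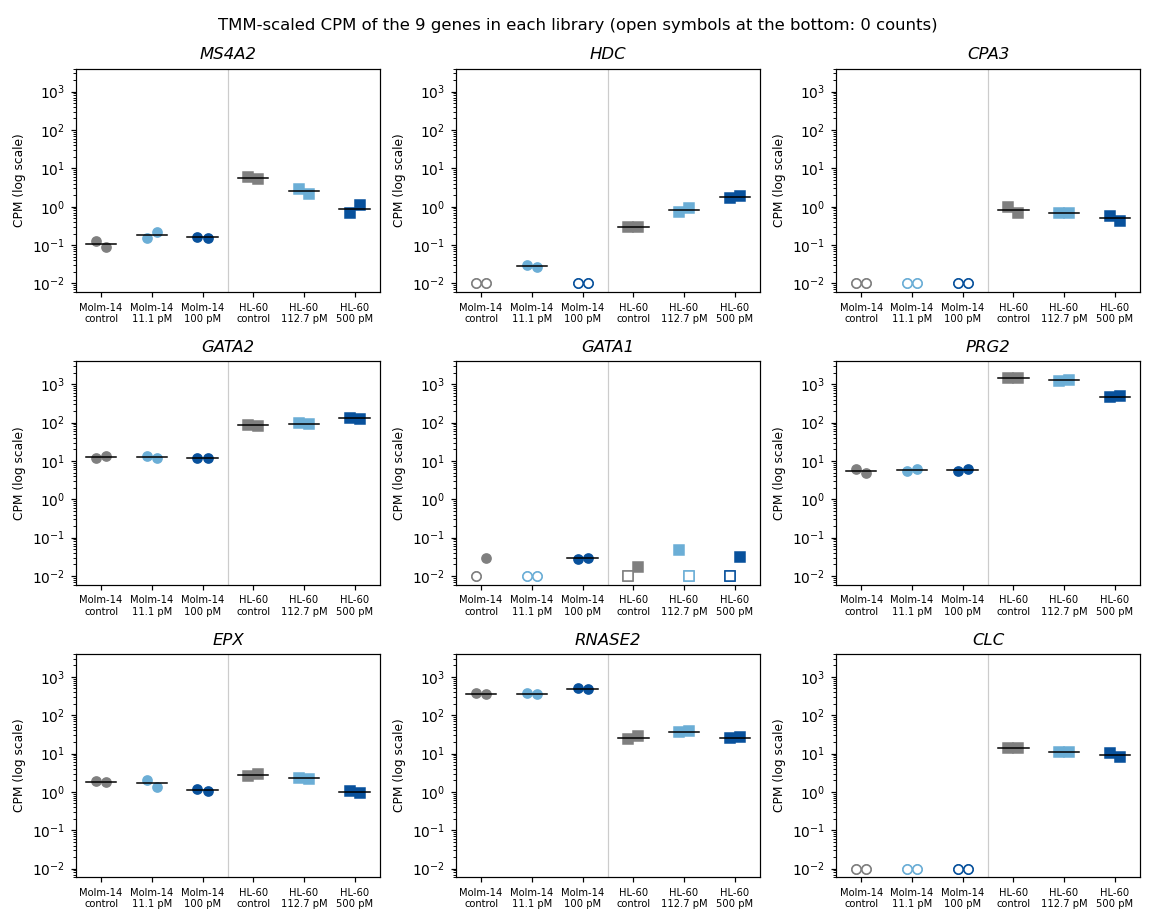
TMM-scaled CPM (vertical axis, log scale) of each gene in each of the 12 libraries, with circles for Molm-14, squares for HL-60, darker blue for the higher dose, grey for controls, black bars for the mean where neither library is at 0 and open symbols for 0 counts. In HL-60 cells MS4A2 descends from 5.79 and 5.26 to 0.702 and 1.08 CPM while HDC climbs from 0.295 and 0.288 to 1.73 and 1.9 CPM.

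In HL-60 cells at 500 pM, 2 of the 8 genes tested were higher than in the controls and 4 were lower, whereas 35.8% of all genes tested were higher and 37.8% lower. In either direction this was 6 of 8 genes beside 73.6% of all genes. A fold over 2 was passed by HDC upwards, as by 16.5% of all genes, and by MS4A2, PRG2 and EPX downwards, as by 2.05%. At 112.7 pM, 3 were higher and 3 lower, against 24.2% and 27.4% of all genes (51.7% in either direction), and with a fold over 2 as well HDC was higher (5.57% of all genes) and MS4A2 lower (0.291%). Between the 2 doses, 2 were higher and 4 lower at the higher dose, against 25.9% and 26.8% (52.6% in either direction), and with a fold over 2 as well HDC was higher (8.15%) and MS4A2, PRG2 and EPX lower (0.723%). The 2 comparisons with controls share the same 2 control libraries. Scaling by total counts alone left the called members at 500 pM at the same number and direction but split all calls there into 6304 higher and 3376 lower in place of 4802 and 5075. In bulk RNA, fewer cells of a type and less RNA per cell cannot be told apart.

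Among the genes of mast cells and basophils, MS4A2 fell, HDC rose and CPA3 was not called. MS4A2 stood at 5.79 and 5.26 CPM in the HL-60 controls, 2.84 and 2.18 CPM at 112.7 pM and 0.702 and 1.08 CPM at 500 pM. The 3 groups did not overlap, and each step downwards was called. The log2 fold change was -1.15 (SE 0.19, adjusted p = 5.39e-05) at the low dose, -2.58 (SE 0.221, adjusted p = 4.27e-09) at the high dose and -1.43 (SE 0.255, adjusted p = 0.000116) between the doses. At 500 pM only 15 and 35 counts remained behind these values.

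HDC stood at 0.295 and 0.288 CPM in the HL-60 controls, 0.723 and 0.941 CPM at 112.7 pM and 1.73 and 1.9 CPM at 500 pM, again with no overlap between groups. Its log2 fold change was 1.52 (SE 0.38, adjusted p = 0.00293) at the low dose and 2.63 (SE 0.336, adjusted p = 2.03e-06) at the high dose. These values rest on 11 and 17 counts in the controls and 37 and 62 at 500 pM. The low dose call was lost without HL-60 low dose replicate 2 (adjusted p = 0.0663), and the rise of 1.11 between the doses (adjusted p = 0.00733) was lost with DESeq2 (0.119), without low dose replicate 1 (0.0673) and without high dose replicate 2 (0.0583).

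CPA3 stood at 0.992 and 0.679, then 0.675 and 0.706, then 0.562 and 0.43 CPM in the same order of groups. The high dose libraries lay below both controls, but the change of -0.75 (SE 0.394, 95% interval -1.59 to 0.09) did not pass the test (adjusted p = 0.0989). These libraries held 12 and 14 counts of CPA3. In the ranking per length, HDC moved from below CPA3 and MS4A2 in the controls to above both at 500 pM, at 1.34 ± 0.0636 TPM against 0.365 ± 0.0636 and 0.515 ± 0.148 TPM.

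**Figure D3:**
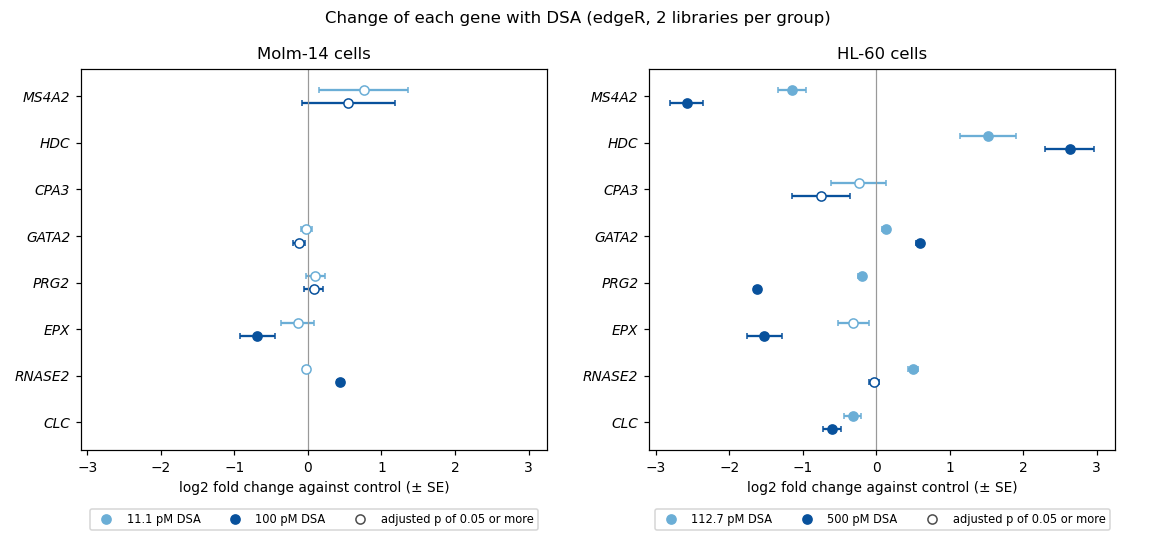
Log2 fold change against the control of the same line (horizontal axis, bars are the SE) for each gene tested at the low dose (light blue) and high dose (dark blue), with open circles where the adjusted p was 0.05 or more; genes without a point had no more than 6 counts summed over the 2 libraries of each group compared. In HL-60 cells at 500 pM the values span -2.58 for MS4A2 to 2.63 for HDC, and in Molm-14 cells at 100 pM RNASE2 at 0.44 and EPX at -0.69 are the filled points.

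GATA2 rose in HL-60 cells while GATA1 stayed at 0 or 1 count. GATA2 libraries held 87.8 and 83.6 CPM in the controls, 96.0 and 91.7 CPM at 112.7 pM and 130.3 and 127.4 CPM at 500 pM, without overlap. The increase at 500 pM was 1.5-fold (log2 0.59, SE 0.0479, adjusted p = 2e-09), and that between the doses was 0.46 (SE 0.0496, adjusted p = 3.54e-07). The step of 0.13 at 112.7 pM (SE 0.0492, adjusted p = 0.0332) was lost among all gene types (0.0561), without control replicate 2 (0.228) and without low dose replicate 1 (0.207). GATA2-AS1, an antisense RNA that overlaps GATA2, went from 13.4 and 14.3 CPM to 22.6 and 20.5 CPM at 500 pM. No source states a strand setting for the counting, but the expected counts of GATA2 and GATA2-AS1 were whole numbers in all 12 libraries, so RSEM divided no reads between them.

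GATA factors bind the letters AGATAA or AGATAG, and with another first letter TGATAA or TGATAG, which were searched on both strands in the 250 bases before each RefSeq transcription start (GRCh38.p14). Of the 7 genes with an entry in the promoter table, 3 held a match, MS4A2, CPA3 and CLC, and these letters occur in 22.3% of all 35116 windows. PRG2 and EPX had no entry. CPA3 and CLC each held 2 matches, at 173 and 45 bases and at 206 and 10 bases before the start, and 2 or more occur in 4.96% of windows. MS4A2 held 1 match, at 54 bases. The sequences are shown because these are the matches in the group, each on the strand of its gene, with the matching letters in capitals. The MS4A2 stretch is chr11:60088598-60088627 on the plus strand, inside an annotated exon of the GENCODE gene, CPA3 is chr3:148865046-148865295 on the plus strand and CLC is chr19:39738030-39738279 on the minus strand.
MS4A2: cagccaagaaacTTATCTgtctggcaaatg
CPA3: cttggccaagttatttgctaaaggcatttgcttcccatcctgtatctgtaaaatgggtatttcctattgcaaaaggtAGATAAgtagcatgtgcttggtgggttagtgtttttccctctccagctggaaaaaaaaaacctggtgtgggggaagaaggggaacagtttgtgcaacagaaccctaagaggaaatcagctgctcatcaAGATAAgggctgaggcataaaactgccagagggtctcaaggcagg
CLC: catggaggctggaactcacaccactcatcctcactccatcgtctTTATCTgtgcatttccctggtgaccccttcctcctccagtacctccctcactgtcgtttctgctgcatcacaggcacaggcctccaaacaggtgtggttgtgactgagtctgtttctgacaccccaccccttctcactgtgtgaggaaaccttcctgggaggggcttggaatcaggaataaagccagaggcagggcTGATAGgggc
In capitals TTATCT is AGATAA read on the other strand. The windows of GATA1, GATA2, HDC and RNASE2 held none of these letters. Annotated exons covered 239 of the 250 bases for HDC, 248 for MS4A2 and 50 for GATA1, so these windows are not all upstream of the gene. Other letters were also counted on both strands: GAGGAA, the core bound by PU.1, was present before GATA1, HDC, CPA3 and CLC and in 1 of 2 windows of GATA2 (23.6% of all windows), and TTGCNNAA, bound by C/EBP factors, before CPA3 and RNASE2 (9.05%). The GAGGAA matches of HDC and GATA1, at 77 and 50 bases before the start, lay in exon bases. A match is a description of the sequence and not a site of binding, and its absence says only that these letters are not in the window.

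Of the eosinophil genes among the 9 in HL-60 cells, PRG2 and EPX fell most at 500 pM, CLC fell less, and RNASE2 was higher only at the lower dose. PRG2 went from 1450.2 and 1489.5 CPM through 1239 and 1320.5 CPM to 458.1 and 498.1 CPM. Most of this 3.07-fold loss (log2 -1.62, SE 0.0458, adjusted p = 5.62e-16) lay between the doses, where the change was -1.42 (SE 0.0458, adjusted p = 3.35e-14). The change of -0.20 at 112.7 pM (SE 0.0441, adjusted p = 0.000913) was lost with DESeq2 (0.171). PRG2 remained the highest of the 9 genes per length at 466.7 ± 31.1 TPM, in place 230 of all protein-coding genes. PRG3, its closest relative, had at most 10 counts in any library.

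EPX stood at 2.6 and 2.92 CPM in the controls, 2.31 and 2.18 CPM at 112.7 pM and 1.03 and 0.922 CPM at 500 pM. The high dose libraries lay below all others, with a log2 change of -1.52 against the controls (SE 0.237, adjusted p = 1.19e-05) and -1.21 against the low dose (SE 0.26, adjusted p = 0.000703). At the low dose the change was -0.31 (SE 0.206, 95% interval -0.74 to 0.12) and did not pass the test. CLC stood at 13.7 and 14.0, 11.0 and 11.3, and 10.4 and 8.11 CPM. Its fall of 0.60 on the log2 scale at 500 pM was called (SE 0.12, adjusted p = 0.000298). The change of -0.32 at 112.7 pM (adjusted p = 0.0348) was lost with DESeq2 (0.248), with RLE factors (0.0728), with scaling by total counts (0.0984), with genes under a mean of 50 counts left out (0.0503) and without any 1 of the 4 libraries (0.0857 to 0.137).

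RNASE2 did not follow the dose in HL-60 cells. Its libraries held 24.3 and 27.9 CPM in the controls, 36.3 and 37.9 CPM at 112.7 pM and 24.9 and 26.5 CPM at 500 pM. The low dose libraries lay above all others, with a log2 change of 0.50 against the controls (SE 0.0688, adjusted p = 6.98e-06) and with a change of -0.53 from the low to the high dose (SE 0.0748, adjusted p = 9.48e-06). The high dose differed from the controls by -0.03 (SE 0.0723, 95% interval -0.18 to 0.13, adjusted p = 0.761). RNASE3, a relative of RNASE2 that encodes the eosinophil cationic protein, stood at 1.58 and 1.22, 1.59 and 1.95, and 0.702 and 0.707 CPM. Its expected counts, like those of RNASE2, were whole numbers in all 6 HL-60 libraries. With RNASE2 and RNASE3 summed, the same number of members was called in every comparison.

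In Molm-14 cells at 11.1 pM no member was called by edgeR, DESeq2 or limma-voom, 0 of 8 had an unadjusted p under 0.05 with any of these tools, and of all genes 0.969% were higher and 0.238% lower (1.21% together). With a fold over 2 as well these shares were 0.00745% and 0.0149%. Of the 8 members, 5 were measured above the floor in Molm-14 cells. The others, HDC, CPA3 and CLC, had at most 1 count per Molm-14 library and passed the filter through HL-60 libraries, so they could not be called within Molm-14 cells. At 100 pM, 1 member was higher and 1 lower, against 22.9% and 21.9% of all genes tested, and neither passed a fold of 2, as 3.29% and 0.730% of all genes did. RNASE2 stood at 377.5 and 352.6 CPM in the controls, 372.2 and 348.1 CPM at 11.1 pM and 508.8 and 481.2 CPM at 100 pM. The high dose libraries lay above all others, with a 1.36-fold rise over the controls (log2 0.44, SE 0.0473, adjusted p = 4.15e-07). At 959.5 ± 18.4 TPM it then ranked 119th of all protein-coding genes. Between the doses RNASE2 was the 1 member called (log2 0.46, SE 0.0472, adjusted p = 3.06e-07), against 19.6% of all genes higher and 18.5% lower (38.1% together), while 2.26% and 0.618% also passed a fold of 2. RNASE3 went from 15.2 and 13.6 to 23.4 and 26.7 CPM, a log2 change of 0.80 (SE 0.0906, adjusted p = 7.61e-07). Expected counts of RNASE2 and RNASE3 were fractional in all 6 Molm-14 libraries, where some reads were divided by estimation.

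EPX had 59 and 61 counts without DSA in Molm-14 cells, 69 and 48 counts at 11.1 pM and 44 and 35 counts at 100 pM, where both libraries (1.22 and 1.05 CPM) lay below all others. An antisense RNA inside EPX had 5 and 4 counts without DSA and 10 and 12 counts at 100 pM. The log2 change of EPX of -0.69 at 100 pM (SE 0.238, adjusted p = 0.0237) was lost with DESeq2 (0.104) and without any 1 of the 4 libraries (0.0553 to 0.131). GATA2 held between 11.8 and 13.8 CPM in all 6 Molm-14 libraries and changed by -0.12 at 100 pM (95% interval -0.29 to 0.05, adjusted p = 0.243). PRG2 held between 4.72 and 6.2 CPM, with a change of 0.08 at 100 pM (95% interval -0.19 to 0.36). MS4A2 had between 3 and 8 counts per Molm-14 library, so that its change of 0.55 had a wide interval (-0.78 to 1.87). HDC had no more than 1 count in any Molm-14 library, and CPA3 and CLC had 0 in all 6, which allows up to 3 counts per library.

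The changes of the lines were then compared with each other by the test of their difference, HL-60 minus Molm-14, which covers 5 members measured above the floor in both lines. Doses, media and serum differed between the lines and cannot be told apart from the line. At the high doses, 1 member differed upwards and 4 downwards, against 25.1% and 30.3% of all genes (55.4% together), and with a fold over 2 as well none differed upwards (10.1%) and MS4A2 and PRG2 downwards (2.21%). GATA2 changed by 0.59 in HL-60 and by -0.12 in Molm-14 cells, a difference of 0.71 (SE 0.094, adjusted p = 3.35e-06). PRG2 changed by -1.62 and 0.08, a difference of -1.70 (SE 0.14, adjusted p = 7.59e-09). MS4A2 differed by -3.12 (SE 0.692, adjusted p = 0.000795), although with few counts on the Molm-14 side. RNASE2 changed by -0.03 in HL-60 and by 0.44 in Molm-14 cells and differed by -0.47 (SE 0.0862, adjusted p = 0.000142).

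EPX was lower at the high dose in both lines, and its difference of -0.82 (SE 0.343, adjusted p = 0.0493) was lost without any 1 of the 8 libraries (0.0508 to 0.158), with DESeq2 (0.215), limma-voom (0.0607), RLE factors (0.0694), total counts (0.107), all gene types (0.0528) and the replicate block (0.0535), and was -0.36 after thinning (0.489). At the low doses 1 member differed upwards and 1 downwards, against 15.4% and 19.9% of all genes (35.3% together), and with a fold over 2 as well none upwards (3.12%) and MS4A2 downwards (0.238%). RNASE2 differed by 0.52 (SE 0.0835, adjusted p = 9.43e-05), the opposite sign to the high doses. MS4A2 differed by -1.91 (SE 0.639, adjusted p = 0.0254), which was lost with DESeq2 (0.0667), without Molm-14 control replicate 2 (0.104), without Molm-14 low dose replicate 2 (0.181) and without HL-60 low dose replicate 2 (0.0574). After thinning to the smallest total the MS4A2 difference was -3.07 (0.00963), with its change in Molm-14 cells going from 0.76 to 1.91.

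The IgE receptor is built of an α chain, the β chain MS4A2 and a pair of γ chains, and the genes of the chains went different ways. FCER1A, the α chain that binds IgE, had no more than 3 counts in any of the 12 libraries. FCER1G, the γ chain, which other Fc receptors also use, stood at 23.5 ± 0.796 CPM in HL-60 controls, 35.2 ± 0.78 CPM at 112.7 pM and 72.5 ± 0.9 CPM at 500 pM. FCER1G rose by 1.63 (log2) at 500 pM (SE 0.0523, adjusted p = 3.6e-15), while MS4A2 fell by 2.58. Of 12 genes that signal below the receptor, 8 were higher and 3 lower at 500 pM. Among all genes 35.8% were higher and 37.8% lower there (73.6% in either direction). The adaptor LAT rose from 1.85 ± 0.307 to 22.8 ± 1.37 CPM (log2 3.59, SE 0.137, adjusted p = 4.05e-14). The kinases FYN and LYN rose by 1.59 (SE 0.0749) and 0.82 (SE 0.0528). Among the 3 lower genes were LAT2 at -0.36 (SE 0.0373) and the kinase SYK at -0.10 (SE 0.0358). In Molm-14 cells at 100 pM, 4 of the 12 were higher and 2 lower, against 44.8% of all genes called in either direction, and FYN fell by 0.91 there (SE 0.0612, adjusted p = 7.95e-10).

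Other genes of eosinophils, basophils and mast cells went in both directions. Of 14 further eosinophil genes 11 were tested, and in HL-60 cells at 500 pM 6 were higher and 3 lower (median log2 0.67, against 0.0 over all genes tested), beside 35.8% higher and 37.8% lower among all genes. CCR3, the eotaxin receptor, rose by 2.49 (SE 0.347, adjusted p = 2.97e-06), from 12 and 31 to 65 and 66 counts, and ADGRE1 rose by 2.62 (SE 0.152, adjusted p = 1.62e-11). The 3 lower genes were RNASE3 at -0.95 (SE 0.255, adjusted p = 0.00251), CEBPE at -0.23 (SE 0.0377) and GFI1 at -0.21 (SE 0.0322). In the libraries in which PRG2 and EPX fell, CCR3 and ADGRE1 thus rose while RNASE3 fell. Of 24 further basophil and mast cell genes 15 were tested, and 7 were higher and 4 lower (median log2 0.40), 11 called in all beside 73.6% of all genes. SIGLEC6, a mast cell lectin, rose by 2.27 (SE 0.13). The tryptase genes TPSAB1 and TPSB2 rose by 2.43 (SE 0.495) and 2.25 (SE 0.457). They went from 14 and 9 to 32 and 39 counts and from 5 and 30 to 28 and 65 counts. MS4A3, a gene of granulocyte precursors from the same family as MS4A2, fell by 1.57 (SE 0.0474, adjusted p = 1.51e-15), and CTSG fell by 0.90 (SE 0.0378). KIT, the receptor of stem cell factor, rose by 1.60 in Molm-14 cells at 100 pM (SE 0.147, adjusted p = 5.54e-08) and by 0.40 in HL-60 cells at 500 pM (SE 0.099, adjusted p = 0.00141).

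Factors that work with GATA proteins or oppose them showed no common direction in HL-60 cells. Of 13 such genes 11 were tested, with 4 higher and 4 lower at 500 pM (median log2 -0.08), beside 73.6% of all genes called. LMO2 and LYL1, which join GATA factors in complexes on DNA, fell by 0.93 (SE 0.0564) and 0.77 (SE 0.0495), and CEBPA fell by 0.57 (SE 0.0353), in the libraries in which GATA2 rose. EPOR, the erythropoietin receptor, rose by 1.07 (SE 0.1, adjusted p = 1.39e-08), as did ZFPM1, a cofactor that binds GATA proteins, by 1.5 (SE 0.179) and the repressor GFI1B by 2.66 (SE 0.586, adjusted p = 0.000535). In Molm-14 cells at 100 pM, 6 were higher and 1 lower, beside 22.9% and 21.9% of all genes, and LMO2 rose by 0.33 (SE 0.0401, adjusted p = 2.01e-06).

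Markers of neutrophil granules and of monocytes moved in the same HL-60 libraries. Of 8 neutrophil granule markers 6 were tested, and 4 were lower and 2 higher at 500 pM, beside 37.8% lower and 35.8% higher among all genes. The lower were PRTN3 by -2.32 (SE 0.0512), ELANE by -1.78 (SE 0.048), MPO by -1.41 (SE 0.0399) and AZU1 by -0.95 (SE 0.0504). The higher were BPI, from 2.35 ± 0.321 to 5.16 ± 0.254 CPM, and CAMP, from 0.0826 ± 0.0031 to 0.737 ± 0.348 CPM. The 8 markers summed to 18241.8 to 18498.1 CPM in the controls and 6527.9 to 6549.7 CPM at 500 pM, with LCN2 at 0 in the controls. Most of this sum was MPO, at 15677.0 CPM in the controls and 5887.9 CPM at 500 pM. PRG2, at -1.62, thus changed by an amount between those of MPO and ELANE. Of 9 monocyte markers 7 were tested and all 7 were higher (median log2 2.32), beside 35.8% of all genes. The 9 summed to 90.9 to 94.2 CPM in the controls and 351.2 to 352.6 CPM at 500 pM, with no marker at 0 in either group. In Molm-14 cells at 100 pM, 2 neutrophil granule markers were higher and 1 lower, and 4 monocyte markers were higher and none lower. Among all genes 22.9% were higher and 21.9% lower there. The summed monocyte level in Molm-14 cells went from 434.5 to 453.6 CPM up to 1052.6 to 1055.2 CPM, with VCAN at 0 in the controls. Most of it was LYZ, at 418.5 CPM in the controls and 984.2 CPM at 100 pM. The summed neutrophil granule level in Molm-14 cells was 3080.4 to 3197.2 CPM in the controls and 3582.7 to 3689.1 CPM at 100 pM, with LCN2 and LTF at 0. Megakaryocyte markers summed to 1.95 to 2.28 CPM in the HL-60 controls and 8.88 to 9.08 CPM at 500 pM, with 1 of 3 genes tested higher, and the erythroid sum stayed under 0.1 CPM. The part of these cell programs in the changes of the 9 genes was not tested.

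**Figure D4:**
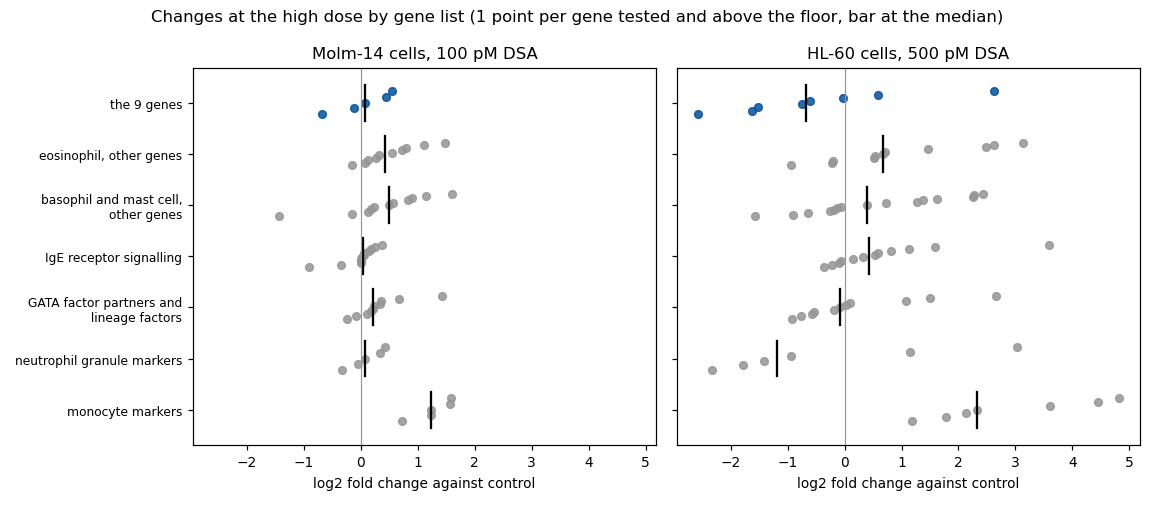
Log2 fold change at the high dose (horizontal axis) of the genes tested and above the floor in each list, with 1 point per gene, the members of the group in blue and a black bar at each median, in Molm-14 cells (left) and HL-60 cells (right). In HL-60 cells the 8 members tested (median -0.67) and the neutrophil granule markers (median -1.18) lie mostly left of 0, and the monocyte markers (median 2.32) lie to its right.

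The genes most like each member in log2 CPM over the 12 libraries are given as a description, since the libraries share line, dose and depth. For MS4A2 they were PTGR3 (Pearson r = 0.9944), SMG1 and IFT57, and for PRG2 they were SLC35C1 (0.9991), CTSC and LMAN2L. GATA2 was most like RASAL1 (0.9983), CLEC4E and SEC16A, and HDC most like CARD9 (0.9948), APOC1 and THY1. RNASE2 was most like PYGL (0.9992), RPL12 and CBR1, CLC like ZNF492 (0.9998), CPA3 like ALKBH3 (0.9983) and EPX, with the weakest likeness, like TRIM65 (0.9661). Within the 6 HL-60 libraries alone, the closest gene was CENPS for MS4A2 (0.9996), RETN for HDC (0.9994), PLPP1 for GATA2 (0.9994) and CLN6 for PRG2 (0.9996). There it was RPL34 for EPX (0.9998), SPATA5L1 for CLC (0.9981) and ELMO3 for CPA3 (0.9961). Within the 6 Molm-14 libraries, CMTM7 was closest to RNASE2 (0.9986). No other member of the group was among the 3 genes closest to any of them.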

How the data were processed

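The 12 RNA-seq libraries were grouped by line and dose from their labels. The deposited values were expected counts and TPM per gene, for which the authors had used Trim Galore (0.60 in the submitters' processing notes), STAR (2.7) on hg38 and RSEM (1.31) with GENCODE release 31. The strand setting of RSEM was not given in the sources used here. Reads that fit several genes are divided by estimation, so near-identical or overlapping genes share error. Deposited FPKM values were not used.

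Gene identifiers without version were matched to GENCODE release 44 (60261 of 60754), and the 45 Y copies of pseudoautosomal genes were left out. Expected counts were rounded. Protein-coding genes of level 1 or 2 (19868) were kept by filterByExpr, leaving 13422, and edgeR 4.0.16 (R 4.3.3) fitted 1 mean per group with TMM factors and glmQLFTest for 9 comparisons, with Benjamini-Hochberg adjustment. The SE is the log2 fold change divided by the square root of F, and 95% intervals use the degrees of freedom of the fit. CPM were computed from counts over the scaled total of the tested genes. Totals ran from 21177424 to 63927449, and counting error is largest for genes of few counts.

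The 9 genes, 8 other gene lists and the tests were chosen with earlier results of these data known. All 9 members are named whatever their values. Of the other lists, up to 4 genes with the smallest p in a comparison are named. Partners that overlap a member or are related to it are named too. Likeness names up to 3 genes by Pearson r of log2 CPM (prior count 2). FCER1A, IL5RA, GATA2-AS1, the antisense RNA in EPX, the readthrough gene, ZFPM1, GFI1B, CEBPE, BPI and CAMP were given outside that rule after their values were seen. So were LAT2, SYK, TPSAB1 and TPSB2, and the levels of LAT, LCN2 and KIT in other comparisons. Promoter windows came from RefSeq (GRCh38.p14), 7 of 9 members matching. Replicates of each group differed beyond sampling noise (chi-square per degree of freedom 2.23 to 3.81), so none was counted as a copy. The tests were tried on simulated data. Alternatives were RLE factors, total counts, DESeq2 1.42.0, limma-voom (limma 3.58.1), no filter and genes averaging 50 counts or more. Others were every gene type, only the samples compared, the replicate number as a block and sums of related genes. A fold over 2 as well and leaving out each library were also tried. The sum with the readthrough gene and thinning were added after seeing the data.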

Additional observations from a re-analysis of the deposited data

Results flagged for a closer look

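The change with DSA differed between the lines, by the test of the difference itself, for 5 members at the high doses and 2 at the low doses, with media, serum and dose also differing. On the log2 scale and as HL-60 minus Molm-14, the differences at the high doses were -3.12 for MS4A2, 0.71 for GATA2, -1.70 for PRG2, -0.82 for EPX and -0.47 for RNASE2. At the low doses they were -1.91 for MS4A2 and 0.52 for RNASE2, the latter opposite in sign to its value at the high doses. The values for EPX at the high doses and MS4A2 at the low doses passed the threshold with little margin (edgeR adjusted p = 0.0493 and 0.0254).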

How the results depend on the processing

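Over single members, 888 alternative values kept their side of the threshold, 45 lost a call, 6 gained one and 0 changed sign while called. Some values without a call did change sign, such as PRG2 in Molm-14 at 100 pM, from 0.08 to as low as -0.07. Asking for a fold change over 2 as well moved the number of members called to 0 in Molm-14 at 100 pM and 0 between its doses, to 2 in HL-60 at 112.7 pM (HDC and MS4A2), and to 2 and 1 for the difference between the lines at the high and low doses. DESeq2 called 1 in Molm-14 at 100 pM and 1 for the low dose difference. Leaving out 1 library in turn gave 1 to 1 members in Molm-14 at 100 pM, 1 to 2 between its doses, where EPX was gained without Molm-14 low dose replicate 2 (adjusted p = 0.0179), 4 to 5 in HL-60 at 112.7 pM, 6 to 6 at 500 pM, 5 to 7 between its doses, 7 to 8 between the untreated lines, and 4 to 4 and 1 to 3 for the differences at the high and low doses.

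CLC between the HL-60 doses (-0.28, adjusted p = 0.0756) was called with limma-voom (0.0204), without a filter (0.0269) and without HL-60 high dose replicate 1 (0.0112), and PRG2 in the low dose difference (-0.30, 0.103) without a filter (0.0223) and without Molm-14 control replicate 1 (0.0195). Replicate numbers did not mark pairs (r of their deviations -0.0687 to 0.0665); with them as a block, 6 members were called in HL-60 at 500 pM, as without, and 7 and 4 in place of 8 and 5 between the untreated lines and in the high dose difference, EPX being lost (0.122 and 0.0535). Scaling by total counts moved the median of all genes to 0.18 in HL-60 at 500 pM, 0.11 between its doses and 0.13 in the high dose difference. It split all calls into 4231 higher and 2696 lower at 112.7 pM (3254 and 3683 with TMM), 4831 and 2107 between the doses (3475 and 3591), 4538 and 2638 in the high dose difference (3373 and 4067) and 2662 and 2085 in the low dose difference (2069 and 2674). RLE factors turned the balance too, to 3873 higher and 3002 lower at 112.7 pM, 5187 and 4603 at 500 pM (4802 and 5075 with TMM), 3760 and 3491 in the high dose difference and 2623 and 2106 in the low dose difference. The causes of these moves were not tested. Depth limits MS4A2, HDC, CPA3 and EPX, with under 100 counts in most libraries.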
